A study of Mus musculus with 16 samples.

Results

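Articular cartilage is a tissue of chondrocytes embedded in the matrix that they secrete. The 10 genes of this matrix and its control described here are Col2a1, Acan, Sox9, Comp, Matn3, Hapln1, Col9a1, Col9a2, Col11a1 and Col11a2, taken by name from the 13733 genes of the table, and all 10 were found. They were followed in bulk RNA-seq libraries of knee joints from 16 mice, 4 in each of 4 groups: uninjured wild type (WT D0), wild type 7 days after injury (WT D7), uninjured Trem2-/- (Trem2-/- D0) and Trem2-/- 7 days after injury (Trem2-/- D7). All mice were labelled C57BL/6. Trem2-/- mice carry the engineered em2Adiuj allele of Trem2, a surface receptor of myeloid cells, in every cell, so that its loss was not limited to the joint. The injury, a rupture of the anterior cruciate ligament by a single compressive overload of the tibia, was made in male mice at 10 weeks of age, while the age given for every sample is 16 weeks. The uninjured groups are intact joints, and no joint that was handled without rupture was among the samples used here. The sources differ on the tissue: one place gives cells from knee joints, released with collagenase, another homogenized joints and another library kit, so that how much cartilage entered a library is not known from them. The methods point to a protocol in which leukocytes were split from other cells by CD45 beads, and do not say which fraction entered these libraries.

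Type II collagen, encoded by Col2a1, builds the fibrils of cartilage, and collagens IX and XI (Col9a1, Col9a2, Col11a1 and Col11a2) coat and seed these fibrils. Aggrecan (Acan) is the large proteoglycan that holds water in the tissue, and the link protein Hapln1 fastens it to hyaluronan. Comp and Matn3 are adaptor proteins between the collagen and proteoglycan networks, and Comp is also abundant in tendon and ligament. Sox9 is the transcription factor that specifies chondrocytes and activates many of these matrix genes.

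The genes lie on 10 different chromosomes of GRCm38 (mm10), and in the GENCODE M21 annotation no exon of another gene overlaps theirs. The fibril genes are Col2a1 at chr15:97975602-98004695 on the minus strand, Col9a1 at chr1:24177610-24252684, Col9a2 at chr4:121039385-121055322, Col11a1 at chr3:114030540-114220718 and Col11a2 at chr17:34039437-34066685. The others are Acan at chr7:79053483-79115099, Hapln1 at chr13:89539796-89611652, Comp at chr8:70373558-70382066, Matn3 at chr12:8947929-8972028 and Sox9 at chr11:112782224-112787760. Since the genes moved together, the 250 bases before their transcription starts were read from the RefSeq promoter table of GRCm38.p6, which held 7 of the 10 genes (not Col2a1, Comp or Sox9). The 4 windows printed here, all on the plus strand and free of annotated exons, are those of the aggrecan gene (chr7:79052976-79053225), the matrilin-3 gene (chr12:8947679-8947928) and the 2 chains of collagen XI (chr3:114030290-114030539 and chr17:34038888-34039137). Capitals mark GGGCGG on either strand (CCGCCC on the other), the GC box bound by Sp factors, and in Col11a2 also TATAAA.
Acan: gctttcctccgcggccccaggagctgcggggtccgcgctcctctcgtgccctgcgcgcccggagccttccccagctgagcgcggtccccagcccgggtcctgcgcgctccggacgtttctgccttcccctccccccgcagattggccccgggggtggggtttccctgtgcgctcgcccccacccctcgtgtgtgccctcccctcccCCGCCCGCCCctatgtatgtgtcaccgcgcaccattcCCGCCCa
Matn3: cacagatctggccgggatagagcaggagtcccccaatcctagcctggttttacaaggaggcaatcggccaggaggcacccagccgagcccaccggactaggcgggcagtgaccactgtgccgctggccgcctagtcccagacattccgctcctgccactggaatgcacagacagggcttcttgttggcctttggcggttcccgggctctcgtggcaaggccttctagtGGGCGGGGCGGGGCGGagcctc
Col11a1: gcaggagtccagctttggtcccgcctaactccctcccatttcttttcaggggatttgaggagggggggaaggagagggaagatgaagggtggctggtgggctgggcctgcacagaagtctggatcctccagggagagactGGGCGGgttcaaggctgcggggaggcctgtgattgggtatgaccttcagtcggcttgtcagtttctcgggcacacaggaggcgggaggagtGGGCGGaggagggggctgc
Col11a2: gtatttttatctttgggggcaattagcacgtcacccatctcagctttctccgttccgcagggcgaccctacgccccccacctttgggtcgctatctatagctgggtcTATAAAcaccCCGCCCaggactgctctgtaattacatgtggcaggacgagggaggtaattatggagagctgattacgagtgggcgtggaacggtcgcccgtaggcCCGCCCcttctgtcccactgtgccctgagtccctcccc
GGGCGG stood in windows of 5 of the 7 genes, those printed and Col9a2, and in 32.7% of the 32851 windows of the whole table, so that these runs are common in promoters at large. TATAAA, read on both strands like every motif here, was found in Col11a2 alone and in 12.4% of all windows. ACAAAG and ACAATG, 2 forms of the SOX core motif held by 16.5% and 10.7% of all windows, had no match in the windows of these 7 genes. Other forms of the motif were not searched. No match says only that these letters are not in this window. The Hapln1 window lay wholly in annotated exons, as did 181 of the 250 bases of the Col9a2 window. The motifs do not overlap each other, apart from repeats of GGGCGG in Acan and Matn3.

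The deposited values are CPM, counts of reads scaled to a common library size, by the TMM method, which assumes that most genes are level between libraries. Reads per library ranged from 11567073 to 32867818, and 3 reads corresponded to 0.101 to 0.250 CPM, a limit that covers counting error only. Trem2 itself was 2.51 to 5.61 CPM at WT D0 and 10.7 to 22.5 at WT D7, against 0.948 to 2.68 at Trem2-/- D0 and 3.42 to 4.84 at Trem2-/- D7. Reads on Trem2 remained in each Trem2-/- library (15 or more), and the ranges of the D0 groups overlapped. Differences were tested on the log2(CPM + 1) scale with limma over 13173 genes, with Benjamini-Hochberg adjustment over all of them, and a gene was called at an adjusted p under 0.05. On this scale the change of low genes is understated. The study's own rule, an unadjusted p under 0.05 and a fold change over 5/4, is given beside it. Nothing in the labels says beyond their numbering how the 4 samples of a group were obtained, so that p-values measure the spread between these samples.

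To determine how the cartilage genes respond to joint injury, D7 was compared with D0 within each genotype. All 10 genes rose after injury in both genotypes, and for each of the 10 every injured mouse lay above every uninjured mouse of its genotype. Among all genes tested, the share that rose was 15.9% for WT and 26% for Trem2-/- mice, and 12.9% and 26.1% were higher without overlap. Over the 10 genes the median log2 difference reached 3.47 for WT and 4.89 for Trem2-/- mice, where the median of all genes tested was -0.04 in both. In bulk libraries, a change in the number of chondrocytes and a change in RNA per chondrocyte cannot be told apart. The comparisons share samples: the WT D0 and Trem2-/- D0 mice enter both these differences and the comparison of genotypes before injury.

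**Figure D1:**
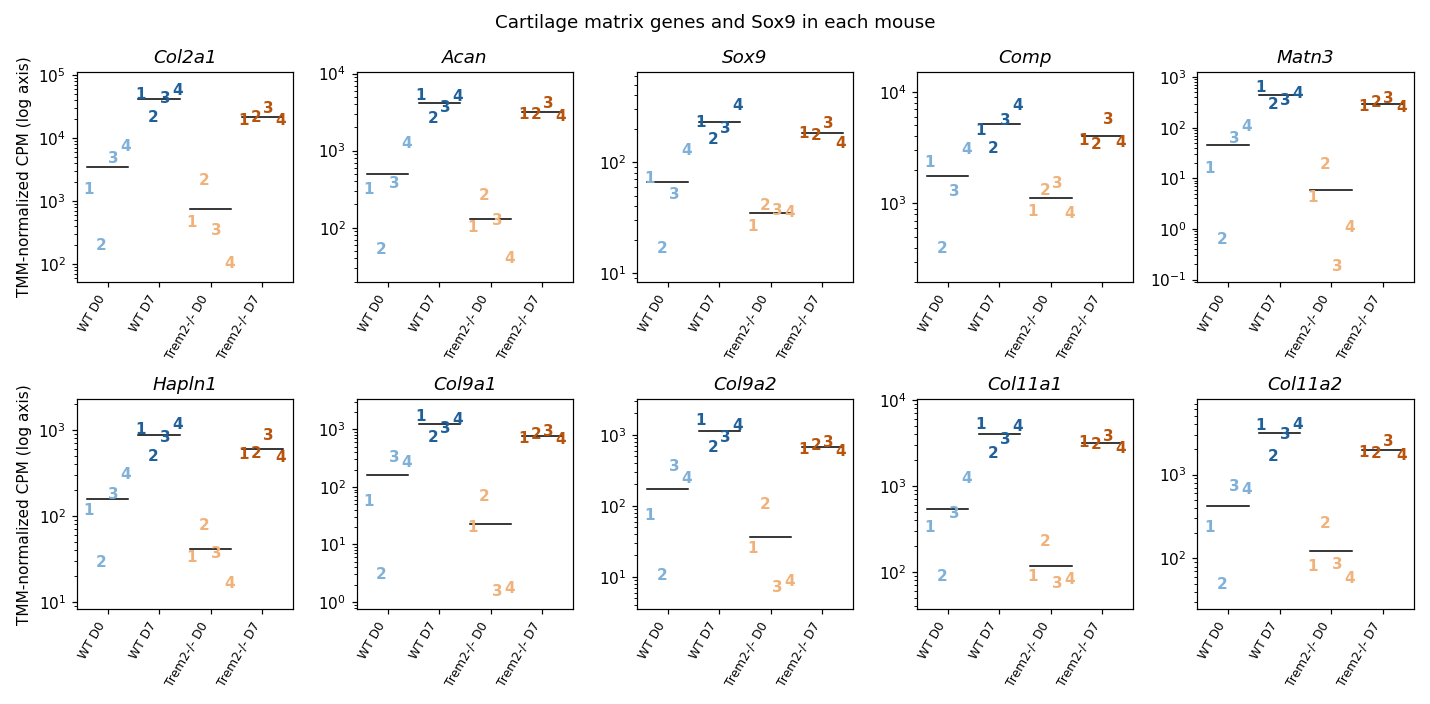
Level of each gene in each mouse, in TMM-normalized CPM on a log axis, for the 4 groups of 4 mice. Each digit is the number of a mouse within its group and black lines are group means. WT mice are spread more widely before than after injury for all 10 genes, Trem2-/- mice for most but hardly for Sox9 and Comp, and injured mice lie above uninjured mice of the same genotype for all 10 genes.

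Col2a1, the main collagen of the tissue, was 1504, 198, 4754 and 7409 CPM in WT mice 1 to 4 at D0 and 49324, 21052, 41789.7 and 56176 CPM in WT mice 1 to 4 at D7. The Trem2-/- mice held 455, 2131, 339 and 104 CPM at D0 and 18809.9, 21441, 28969.5 and 18741 CPM at D7. The lowest injured mouse thus lay far above the highest uninjured mouse in both genotypes, while the uninjured WT mice alone spanned 37.3-fold. The log2 difference between D7 and D0 was 4.45 (SE 0.96, limma adjusted p = 0.00480) in WT and 5.65 (SE 0.96, limma adjusted p = 0.000234) in Trem2-/- mice. Among the 13173 genes tested this was the 2nd largest rise in WT and the 5th largest in Trem2-/- mice. After injury, Col2a1 had the most reads of any gene in 3 of 4 WT mice and was the 5th in the remaining WT mouse and in all 4 Trem2-/- mice, whereas before injury its rank among the listed genes ran from 5 to 1910.

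The proteoglycan genes moved likewise. Acan was 309.9, 52.0, 379 and 1245 CPM at WT D0 and 5267, 2604, 3587 and 4992 CPM at WT D7. Without Trem2, Acan was 99.0, 263, 122 and 39.4 CPM at D0 and 2929, 2929, 4069 and 2785 CPM at D7. The 4 injured Trem2-/- mice were close to each other and all above the uninjured mice of both genotypes. The log2 difference of Acan was 3.74 (SE 0.71, limma adjusted p = 0.00248) in WT and 4.88 (SE 0.71, limma adjusted p = 7.19e-05) in Trem2-/- mice. Hapln1, which secures aggrecan to hyaluronan, was 116, 29.0, 179 and 302 CPM at WT D0 and 1019, 494, 814 and 1147 CPM at WT D7. Without Trem2, Hapln1 was 33.1, 77.4, 36.1 and 16.4 CPM at D0 and 521, 533, 873 and 486 CPM at D7. It rose by a log2 difference of 2.82 (SE 0.57, limma adjusted p = 0.00341) in WT and 4.02 (SE 0.57, limma adjusted p = 6.08e-05) in Trem2-/- mice, less than Acan in both genotypes, with no test of that difference between genes.

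Among the minor collagens, Col9a1, a chain of collagen IX, varied most between uninjured mice. It was 56.0, 3.06, 328 and 265 CPM at WT D0 and 1679, 726, 1034 and 1496 CPM at WT D7. In Trem2-/- mice Col9a1 was 19.6, 67.0, 1.49 and 1.70 CPM at D0 and 699, 806, 910.5 and 672 CPM at D7. Before injury 1 WT and 2 Trem2-/- mice thus held only a few CPM, whereas the lowest injured mouse of either genotype held 672. The log2 difference was 4.13 (SE 1.18, limma adjusted p = 0.0192) in WT, which had the highest adjusted p of the 10 genes, and 6.28 (SE 1.18, limma adjusted p = 0.000492) in Trem2-/- mice. The WT call of Col9a1 was lost without WT D0 mouse 2 (2.78, limma adjusted p = 0.05018) and without WT D7 mouse 1 (3.96, limma adjusted p = 0.05015). Col9a2, another chain of the same collagen, was 72.5, 10.4, 361 and 246 CPM at WT D0 and 1589, 657, 924 and 1344 CPM at WT D7. Its values in Trem2-/- mice were 24.9, 103, 6.98 and 8.57 CPM at D0 and 622, 706, 790.0 and 578 CPM at D7. The same mice were low for both chains. Col9a2 rose by 3.52 (SE 0.90, limma adjusted p = 0.0114) in WT and 4.97 (SE 0.90, limma adjusted p = 0.000370) in Trem2-/- mice on the log2 scale.

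Collagen XI sits inside the type II fibrils and limits their width. Col11a1 was 327, 87.8, 477 and 1228 CPM at WT D0 and 5103, 2362, 3439 and 4959 CPM at WT D7. In Trem2-/- mice Col11a1 was 88.2, 222, 73.0 and 81.4 CPM at D0 and 3153, 3033, 3757 and 2729 CPM at D7. Among the 10 genes Col11a1 had the smallest adjusted p in both genotypes, with log2 differences of 3.39 (SE 0.58, limma adjusted p = 0.00135) and 4.91 (SE 0.58, limma adjusted p = 2.14e-05). Col11a2 was 235, 49.4, 719.9 and 661 CPM at WT D0 and 3822, 1628, 3004 and 3981 CPM at WT D7. Trem2-/- mice had Col11a2 at 79.2, 263, 83.4 and 58.3 CPM at D0 and 1825, 1809.6, 2455 and 1703 CPM at D7. It rose by 3.42 (SE 0.67, limma adjusted p = 0.00289) in WT and 4.25 (SE 0.67, limma adjusted p = 0.000127) in Trem2-/- mice on the log2 scale, again without overlap.

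The adaptor genes stood at opposite ends of the range. Matn3 was 15.8, 0.621, 60.4 and 108 CPM at WT D0 and 634, 292, 339 and 470.3 CPM at WT D7. In Trem2-/- mice Matn3 was 4.10, 18.6, 0.179 and 1.08 CPM at D0 and 257, 310.1, 384 and 250.3 CPM at D7. The value of 0.179 CPM rests on 3 reads, so that Matn3 was close to undetectable in that mouse. The log2 difference was 4.33 (SE 1.02, limma adjusted p = 0.00768) in WT and 6.23 (SE 1.02, limma adjusted p = 0.000178) in Trem2-/- mice. Comp, by contrast, was already abundant before injury, at 2312, 396, 1267 and 3023 CPM at WT D0, and was 4526, 3087, 5519 and 7534 CPM at WT D7. Comp in Trem2-/- mice was 841, 1296, 1511 and 820.1 CPM at D0 and 3657, 3406, 5599.9 and 3524 CPM at D7. The highest WT D0 mouse and the lowest WT D7 mouse of Comp were nearly level. Comp rose least of the 10 genes, by 1.84 (SE 0.49, limma adjusted p = 0.0140) in WT and 1.88 (SE 0.49, limma adjusted p = 0.00515) in Trem2-/- mice on the log2 scale.

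Sox9, the regulator among these structural genes, was 71.2, 16.6, 51.1 and 128 CPM at WT D0 and 227, 162, 204 and 327 CPM at WT D7. The level of Sox9 in Trem2-/- mice was 26.5, 40.3, 36.9 and 35.3 CPM at D0 and 181, 176, 223 and 148 CPM at D7. Its log2 difference of 2.05 (SE 0.42, limma adjusted p = 0.00364) in WT and 2.36 (SE 0.42, limma adjusted p = 0.000317) in Trem2-/- mice was the smallest but that of Comp in both genotypes. Only the order of the differences is described here, since differences between genes were not tested.

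The size of the rise in WT mice depended on single uninjured mice. Without WT D0 mouse 2 it was 3.39 for Col2a1, 2.91 for Acan, 3.10 for Matn3, 2.16 for Hapln1, 2.51 for Col9a2, 2.71 for Col11a1, 2.60 for Col11a2, 1.246 for Comp and 1.51 for Sox9 on the log2 scale, and these 9 genes were still called. Without WT D0 mouse 4 it was 5.13 for Col2a1, 4.43 for Acan, 5.13 for Matn3 and 3.98 for Col11a1, and without WT D0 mouse 3 it was 4.89 for Col9a1 and 4.17 for Col9a2. In Trem2-/- mice it was higher without D0 mouse 2 (6.42 for Col2a1, 7.00 for Matn3, 7.21 for Col9a1 and 5.74 for Col9a2) and lower without D0 mouse 4 for Col2a1 (4.97) and without D0 mouse 3 for Col9a1 (5.62), and all 10 genes were still called in each case.

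Per kilobase of exon, the order of the levels changed between uninjured and injured joints. At D0 Comp was the highest of the 10 genes in both genotypes, at 589.7 CPM per kilobase against 375 for Col2a1 in WT, an order seen in 3 of 4 mice. In Trem2-/- D0 mice Comp was 377 CPM per kilobase and Col2a1 81.9, an order seen in 4 of 4 mice. At D7 Col2a1 was the highest, at 4553 CPM per kilobase against 1741 for Comp in WT and 2379 against 1364 in Trem2-/- mice, in 4 of 4 mice of each genotype. Sox9 was the lowest at D7, at 55.5 CPM per kilobase in WT and 44.0 in Trem2-/- mice, while Hapln1 and Matn3, next above it, were each the higher in 2 of 4 mice in both genotypes. At D0 the middle of the order was not stable between mice: Acan and Col11a2, next to each other in both genotypes, each led in 2 of 4 mice.

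Together the 10 genes took 0.533%, 0.102%, 0.954% and 1.53% of the reads in WT mice 1 to 4 at D0 and 7.02%, 3.05%, 5.47% and 7.05% at D7. The same genes took 0.181%, 0.495%, 0.245% and 0.131% in Trem2-/- mice 1 to 4 at D0 and 2.96%, 3.21%, 4.12% and 2.94% at D7. Col2a1 alone made up 63.7% to 68.9% of the reads of the 10 genes at WT D7 and 57.6% to 61.0% at Trem2-/- D7. In these mice the shares of the injured genotypes did not overlap, which was not tested. They restate the level of Col2a1 relative to the other genes. Col2a1 itself was not called between the genotypes at D7 (limma adjusted p = 0.892).

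**Figure D2:**
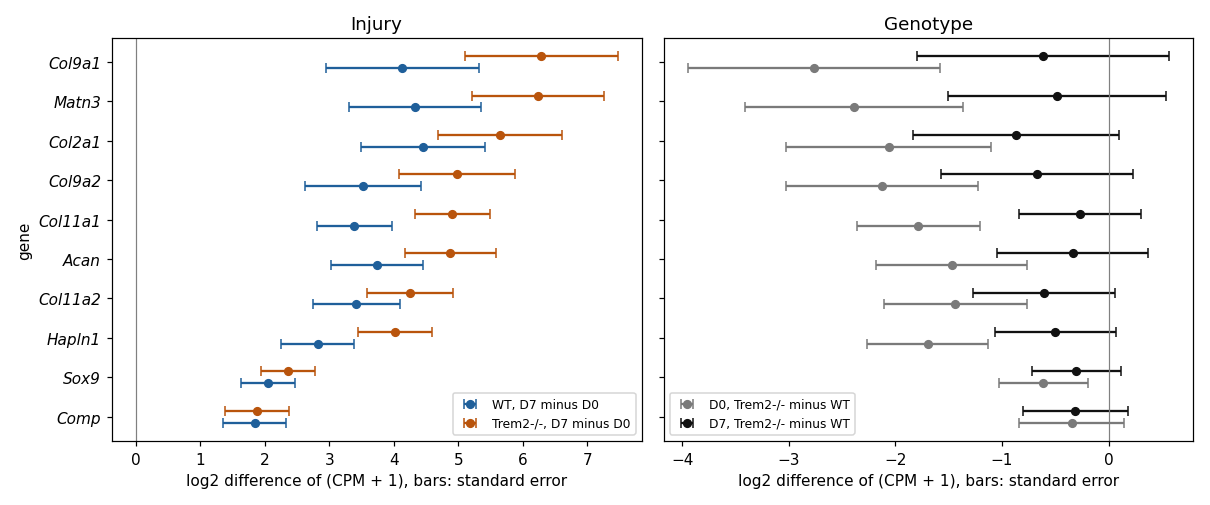
Log2 difference of (CPM + 1) with its standard error for each gene, between D7 and D0 in each genotype (left) and between Trem2-/- and WT mice at each day (right). All 10 genes lie to the right of 0 for injury and to the left of 0 for genotype, and the genotype differences lie further from 0 at D0 than at D7. The standard errors are equal at both days, since the 4 groups share 1 estimate of the spread.

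To determine whether the cartilage genes differ without Trem2 before injury, Trem2-/- D0 mice were compared with WT D0 mice. The mean of all 10 genes was lower without Trem2, with log2 differences from -2.77 (SE 1.18) for Col9a1 to -0.34 (SE 0.49) for Comp and a median of -1.74. With limma none of the 10 was called (adjusted p = 0.9996 for each), nor was any gene at all (0%), although 2.92% of all genes had an unadjusted p under 0.05, and edgeR, voom and DESeq2 on the recovered reads called none of the 10 either. By the study's rule 7 of the 10 were lower, all but Acan, Sox9 and Comp, where 1.37% of all genes were lower. Col11a1 and Hapln1 had the smallest unadjusted p, with log2 differences of -1.79 (SE 0.58) and -1.70 (SE 0.57). The groups overlapped for all 10 genes, where 0.539% of all genes were lower without overlap: WT mouse 2 lay below the highest Trem2-/- mouse each time, and the WT group had the wider span. The 7 calls were 2 when WT mouse 3 or 4 or Trem2-/- mouse 3 or 4 was left out, and 10 without WT mouse 2. They were also 2 with only these 8 mice in the fit. The differences themselves moved likewise, to -3.12 for Col2a1 and -0.94 for Comp without WT mouse 2 and to -1.38 and 0.0364 without WT mouse 4, so that the direction of Comp rests on that mouse.

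At D7 the mean of all 10 genes was again the lower one without Trem2, with log2 differences from -0.87 (SE 0.96) for Col2a1 to -0.27 (SE 0.58) for Col11a1 and a median of -0.49. None of the 10 was called by limma (adjusted p from 0.890 to 0.945; 0% of all genes) or by the study's rule, by which 4.53% of all genes were lower, and their unadjusted p ran from 0.377 to 0.649. edgeR, voom and DESeq2 also called none. For Acan the difference was -0.33 with an SE of 0.71, which does not show that the genotypes are alike. With only the 8 injured mice in the fit, whose spread is far smaller than that of the uninjured mice, 3 of the 10 genes were lower by the study's rule.

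The response to injury itself was then compared between genotypes as an interaction. The log2 difference between D7 and D0 was higher in Trem2-/- than in WT mice for all 10 genes, by a median of 1.20, from 0.03 (SE 0.70) for Comp to 2.15 (SE 1.67) for Col9a1. Leaving out any of 7 single mice turned the direction of Comp (down to -0.35), and leaving out WT D0 mouse 4 turned that of Sox9 (-0.11). None of these differences was called (limma adjusted p from 0.648 to 0.993, unadjusted p from 0.0816 to 0.962), and 2.77% of all genes tested passed the study's rule in this direction, none (0%) after adjustment. voom called none of the 10 by either rule, and edgeR and DESeq2 each called 1 by the study's rule and none after adjustment. Without WT D0 mouse 2 the study's rule was met by 8 of the 10 genes. The same uninjured mice enter this comparison and the one between genotypes at D0, so that they are not separate observations.

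For most of the 10 genes, uninjured mice of one genotype differed from each other more than injured mice did. The exceptions were Sox9 and Comp in Trem2-/- mice, whose SD on the log2 scale was close at both days, 0.25 at D0 and 0.24 at D7 for Sox9 and 0.44 and 0.34 for Comp. The standard deviation (SD) between the 4 mice on the log2 scale had a median over the 10 genes of 1.83 at WT D0 (1.21 to 2.92) and 0.54 at WT D7 (0.42 to 0.63). For Trem2-/- mice it was 1.03 at D0 (0.25 to 2.33) and 0.25 at D7 (0.19 to 0.39). The median SD of all genes tested was 0.27, 0.21, 0.24 and 0.13 in these groups, in the same order, so that the 10 genes were also more variable than most genes. At WT D0 each of the 10 lay at percentile 99.2 or higher of the SD over all genes. At Trem2-/- D0 the percentile ran from 53.6 for Sox9 to 99.98 for Col9a1.

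**Figure D3:**
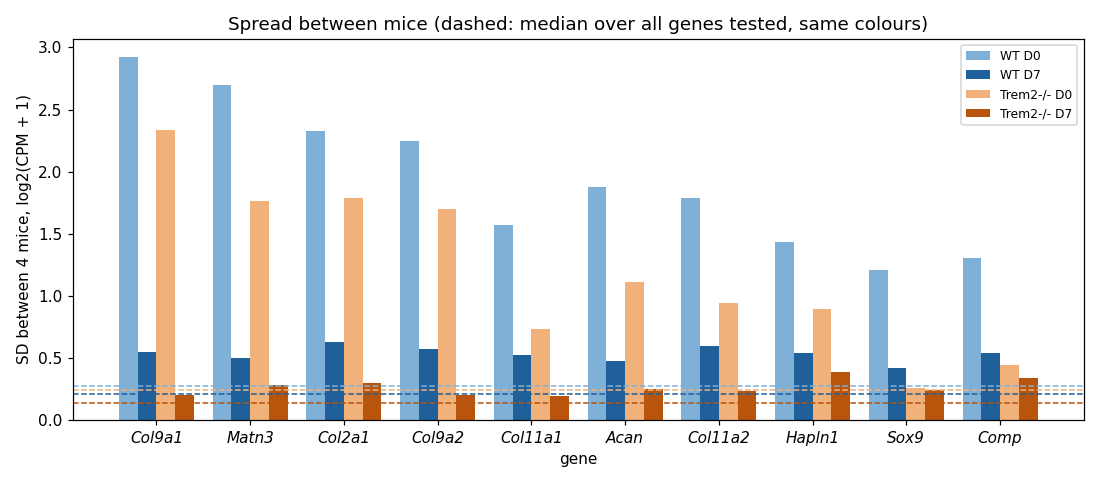
SD between the 4 mice of each group on the log2(CPM + 1) scale for each gene, as bars from 0. Dashed lines in the same colours give the median SD over all genes tested. The bars of WT D0 are the highest for all 10 genes, and those of Trem2-/- D7 are the lowest.

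The deviations of the mice from their group mean were compared between D0 and D7 with limma. They were larger at D0 for 6 of the 10 genes, where 17.2% of all genes were called in that direction. The genes called were Col9a1 (mean deviation larger by 2.00 log2 units, SE 0.45, limma adjusted p = 0.00594), Matn3 (1.56, SE 0.41, limma adjusted p = 0.0101) and Col9a2 (1.36, SE 0.38, limma adjusted p = 0.0118), with Col2a1 (1.30, SE 0.39, limma adjusted p = 0.0185), Col11a2 (0.82, SE 0.28, limma adjusted p = 0.0337) and Acan (0.83, SE 0.29, limma adjusted p = 0.0403). Col11a2 and Acan passed while their partners Col11a1 and Hapln1 did not, which is a split at the threshold, since differences between genes were not tested. Of 22 alternatives, the call changed in 9 for Col11a1, 8 for Col11a2, 5 for Acan and 3 for Hapln1. For Col11a1, Hapln1, Sox9 and Comp the deviations were also larger at D0, by 0.33 to 0.63, and did not pass (limma adjusted p from 0.0523 to 0.161). The count of 6 was 10 without WT D0 mouse 3 and 4 to 9 without any other single mouse.

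Between the uninjured genotypes, deviations were smaller in Trem2-/- than in WT mice for all 10 genes, by 0.25 to 0.75 log2 units. None of the 10 was called (limma adjusted p from 0.0618 to 0.899) where 1.47% of all genes were called lower, and 2 had an unadjusted p under 0.05, Sox9 and Comp, as had 15.8% of all genes. Sox9 showed this most plainly: its values spanned 7.69-fold in WT D0 mice and 1.52-fold in Trem2-/- D0 mice. The call depends on single mice: Sox9 passed after adjustment without WT mouse 1, 3 or 4 or without Trem2-/- mouse 1. Comp passed without WT mouse 3 (limma adjusted p = 0.02924), and Col11a1 and Col11a2 without Trem2-/- mouse 2 (limma adjusted p = 0.01831 and 0.03938). Without WT mouse 2 the deviations were larger in Trem2-/- mice for 5 genes, by 0.93 for Col9a1, 0.38 for Col9a2, 0.30 for Col2a1 and for Matn3, and 0.0863 for Hapln1. Without Trem2-/- mouse 1 they were larger for Col9a1 and Col9a2, by 0.09 and 0.0043.

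The 10 genes shared some of the extreme mice of each group. At WT D0, mouse 2 was the lowest for 10 of 10 genes, mouse 4 was the highest for 7, and mouse 3 was the highest for Col9a1, Col9a2 and Col11a2. At Trem2-/- D0, mouse 2 was the highest for 9 of 10 genes, all but Comp, while the lowest was mouse 4 for 5 genes and mouse 3 or 1 for the others. At WT D7, mouse 2 was the lowest for 10 of 10 genes and mouse 4 the highest for 5, and at Trem2-/- D7, mouse 3 was the highest for 10 of 10. The numbers name different mice in each group and do not link them. Over the 8 uninjured mice, after subtraction of each genotype's mean, the correlation of a gene with the mean of the other 9 was 0.78 for Comp, 0.82 for Sox9 and 0.91 to 0.98 for the rest. These values share library and depth and are a description. WT D0 mice 2 and 4, the lowest and most often the highest, had 17286448 and 17572687 reads on listed genes. Without both of them, the rise of 9 of the 10 genes in WT mice was called after adjustment, and Col9a1 had a log2 difference of 3.10 (limma adjusted p = 0.05668), while by the study's rule 10 of 10 were called. Also by the study's rule, and without both, 9 were lower in Trem2-/- D0 than in WT D0 mice, and none was after adjustment.

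Ratios between genes within a library do not depend on how the library was scaled. The 7 ratios given here were chosen after the values were seen and carry no test. Col2a1 reads per Sox9 read were 12.0 to 93.0 at WT D0 and 130 to 218 at WT D7, and 2.95 to 52.9 at Trem2-/- D0 and 104 to 129.7 at Trem2-/- D7. Col2a1 was thus higher relative to Sox9 in each injured mouse than in any uninjured mouse. Comp reads per Col2a1 read were 0.267 to 2.00 at WT D0 and 0.0918 to 0.147 at WT D7, and in Trem2-/- mice 0.608 to 7.87 at D0 and 0.159 to 0.194 at D7. Hapln1 reads per Acan read were 0.243 to 0.557 at WT D0 and 0.190 to 0.230 at WT D7, and in Trem2-/- mice 0.295 to 0.416 at D0 and 0.174 to 0.215 at D7. In both ratios the injured mice lay below the uninjured mice of their genotype without overlap.

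The 2 chains of collagen IX came to a nearly fixed ratio after injury. Col9a1 reads per Col9a2 read were 1.06 to 1.12 at WT D7 and 1.12 to 1.16 at Trem2-/- D7, against 0.294 to 1.08 at WT D0 and 0.198 to 0.787 at Trem2-/- D0. Uninjured mice with low levels of both chains had the least Col9a1 per Col9a2. Among injured mice the genotypes overlapped for Hapln1 per Acan and not for the other ratios. Those of Col2a1 per Sox9 (130.2 or more in WT, 129.7 or less in Trem2-/- mice) and of the collagen IX chains lay close together. Col2a1 enters most of these ratios, so that they are not separate observations. How often ratios of other gene pairs separate the genotypes was not determined. Col2a1 reads per Acan read were 8.08 to 11.6 in WT and 6.42 to 7.32 in Trem2-/- mice at D7, and 3.82 to 12.5 and 2.65 to 8.11 at D0. Col2a1 reads per Col11a1 read were 8.91 to 12.2 in WT and 5.97 to 7.71 in Trem2-/- mice at D7, against 2.26 to 9.96 and 1.28 to 9.62 at D0. Col11a1 reads per Col11a2 read were 1.14 to 1.45 in WT and 1.53 to 1.73 in Trem2-/- mice at D7. At D0 they were 0.663 to 1.86 and 0.844 to 1.40. In each of the 7 ratios the uninjured genotypes overlapped.

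**Figure D4:**
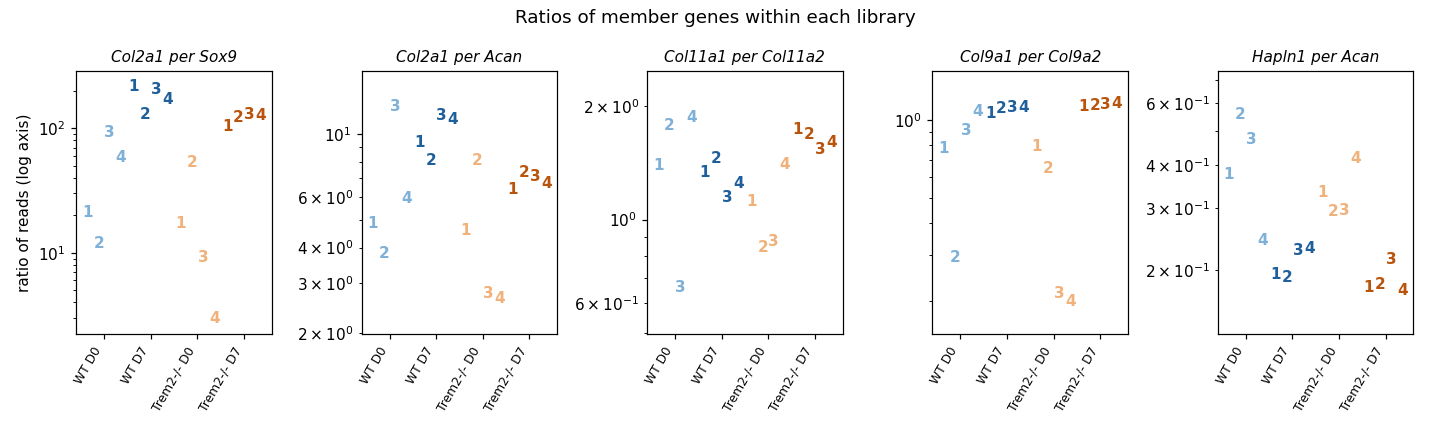
Ratio of the reads of one gene to those of another within each library, on log axes, for 5 of the ratios. Each digit is the number of a mouse within its group. Injured mice are close together, and Col2a1 per Acan and Col11a1 per Col11a2 separate WT D7 from Trem2-/- D7 mice.

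Beyond the 10 genes, a list of 24 other chondrocyte genes was examined, of which 23 were in the table (not Cilp) and 22 were tested (not Nkx3-2, which was too low). In WT mice 16 of the 22 rose after injury and 1 fell, with a median log2 difference of 1.17. Without Trem2, 18 rose and 1 fell, with a median of 1.30. Among all genes tested, 15.9% rose in WT and 26% in Trem2-/- mice. Col9a3, the remaining chain of collagen IX, was 135 ± 118 (SD, n = 4) CPM at WT D0 and 1047 ± 352 at WT D7, and 29.4 ± 35.8 and 620 ± 85.8 in Trem2-/- mice. Col27a1, a fibrillar collagen of growing cartilage, was 116 ± 72.6 CPM at WT D0 and 469 ± 165 at WT D7, and 51.0 ± 23.4 and 359 ± 79.3 in Trem2-/- mice. Lect1, which encodes the antiangiogenic factor chondromodulin, was 49.5 ± 45.5 and 308 ± 94.1 CPM in WT and 13.9 ± 20.6 and 212 ± 12.9 CPM in Trem2-/- mice. All 3 rose in both genotypes, with limma adjusted p from 0.000168 (Col27a1 in Trem2-/- mice) to 0.0227 (Lect1 in WT mice).

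Of the genes named from this list, the remaining 5 are enzymes, regulators and a secreted protein. Papss2, which makes the sulfate donor for proteoglycans, rose by 1.84 (SE 0.27, limma adjusted p = 0.000730) in WT and 1.70 (SE 0.27, limma adjusted p = 0.000140) in Trem2-/- mice on the log2 scale. Chst11, a chondroitin sulfotransferase, rose by 0.81 (SE 0.23) and 0.86 (SE 0.23), Trps1, a transcription factor of cartilage, by 1.52 (SE 0.19) and 1.30 (SE 0.19), and Wwp2, a ubiquitin ligase whose gene is active in cartilage, by 0.70 (SE 0.14) and 0.43 (SE 0.14), with limma adjusted p from 7.46e-05 to 0.0203. Cytl1, a secreted protein of chondrocytes, was the one gene that fell. Cytl1 was 397 ± 340 (SD, n = 4) CPM at WT D0 and 85.3 ± 109 at WT D7, a log2 difference of -2.44 (SE 0.76, limma adjusted p = 0.0279). In Trem2-/- mice Cytl1 was 208 ± 91.4 and 33.7 ± 25.2 CPM, a log2 difference of -2.73 (SE 0.76, limma adjusted p = 0.00734). Chad, a matrix protein of mature cartilage that was not selected by this rule and was chosen after its values were seen, was 1155 ± 711 CPM at WT D0 and 860.4 ± 651 at WT D7 and was not called (log2 difference -0.39, SE 0.64, limma adjusted p = 0.664).

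Genes of hypertrophic chondrocytes, the cells that precede mineralization, rose too. All 4 of the list (Col10a1, Ihh, Pth1r and Panx3) were called in both genotypes, with median log2 differences of 2.55 in WT and 3.83 in Trem2-/- mice. Before injury Ihh had few reads, with means of 0.721 CPM at WT D0 and 0.335 at Trem2-/- D0. Panx3 came down to 0.239 CPM at WT D0 and to 0 at Trem2-/- D0. Col10a1, the collagen of hypertrophic cartilage, was 194 ± 154 (SD, n = 4) CPM at WT D0 and 1044 ± 485 at WT D7, and 34.7 ± 22.9 and 974 ± 427 CPM in Trem2-/- mice. None of the chondrocyte or hypertrophic genes was called between genotypes at either day by limma. By the study's rule 4 of the 22 chondrocyte genes and 2 of the 4 hypertrophic genes were lower in Trem2-/- D0 mice, and none at D7. By the same rule 1.37% of all genes tested were lower at D0 and 4.53% at D7.

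Among all other genes tested, those most like the 10 were found by their Pearson correlation, on the log2 scale, with the mean of the standardized values of the 10. Over the 16 libraries the 8 most alike were Col27a1 (0.993), Col9a3 (0.990), Steap1 (0.987), Pth1r (0.984), Krt16 (0.977), Car12 (0.976), Loxl4 (0.973) and Ngef (0.971). Over the 8 uninjured mice, after subtraction of each genotype's mean, they were Efcab1 (0.997), Col27a1 (0.976), Slc2a1 (0.973), Coq8b (0.967), Steap1 (0.966), Loxl4 (0.964), Pth1r (0.963) and Slc8a3 (0.963). Col27a1, Steap1, Loxl4 and Pth1r stood in both, and Col27a1, Col9a3 and Pth1r also belong to the chondrocyte and hypertrophic lists above. The 8 uninjured mice are among the 16 libraries, so that the rankings are not separate observations. Group means were not subtracted over the 16 libraries, so that this ranking includes the rise after injury. Both are the highest values out of all genes and are a description. Steap1 and Efcab1 had few reads, with Steap1 at 0.382 to 3.43 CPM and Efcab1 at 0 to 0.817 CPM in WT D0 mice.

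Markers of other cell types moved with injury as well. Fibroblast markers (Col1a1, Col3a1, Dcn, Lum, Pdgfra, Prg4 and Thy1) were called higher at D7 for 5 of 7 genes in WT and 6 of 7 in Trem2-/- mice. Of all genes tested, 15.9% rose in WT and 26% in Trem2-/- mice. Dcn was not called in either genotype, and Prg4 was not called in WT mice. The summed level of the fibroblast markers was 9369 to 42858 CPM at WT D0 and 65147 to 90218 at WT D7, and 7360 to 16169 and 82460 to 116769 CPM in Trem2-/- mice. At WT D7 most of it was Col1a1 and Col3a1, with means of 39174 and 27591 CPM. The order of the fibroblast sums among the uninjured mice was not that of the cartilage sums. WT mouse 4 was the highest of its group for both, while Trem2-/- mouse 4 had the highest fibroblast sum and the lowest cartilage sum. The fibroblast order at Trem2-/- D0 leans on Prg4, which alone ran from 1939 to 9874 CPM in that group. The order without Prg4 was not determined. Osteoblast markers were called higher for 3 of 6 genes in WT and 4 of 6 in Trem2-/- mice, with sums of 120 to 878 and 861 to 2412 CPM in WT and of 118 to 297 and 496 to 1758 CPM in Trem2-/- mice. Most of these sums was Ibsp, with a mean of 306 CPM at WT D0 and 1292 at WT D7. Bglap2 (log2 difference -0.78 in WT and 0.49 in Trem2-/- mice) and Phex (0.38 and 0.35) were not called in either genotype. Tendon markers, where Comp is also made, were called higher for 1 of 5 genes in WT and 5 of 5 in Trem2-/- mice. Their sums were 393 to 2348 CPM at WT D0 and 1919 to 4582 at WT D7, and 481 to 758 and 2608 to 3918 CPM in Trem2-/- mice. Fmod made up most of the tendon sums, with a mean of 1306 CPM at WT D0 and 519 at Trem2-/- D0. At WT D0 the osteoblast and tendon sums were, like the cartilage sum, lowest in mouse 2 and highest in mouse 4. The hypertrophic sum was lowest in mouse 2 and highest in mouse 3. At Trem2-/- D0 the hypertrophic sum had the order of the cartilage sum. The osteoblast sum was highest in mouse 2, as the cartilage sum was, but lowest in mouse 3. The tendon sum was highest in mouse 4, like the fibroblast sum.

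**Figure D5:**
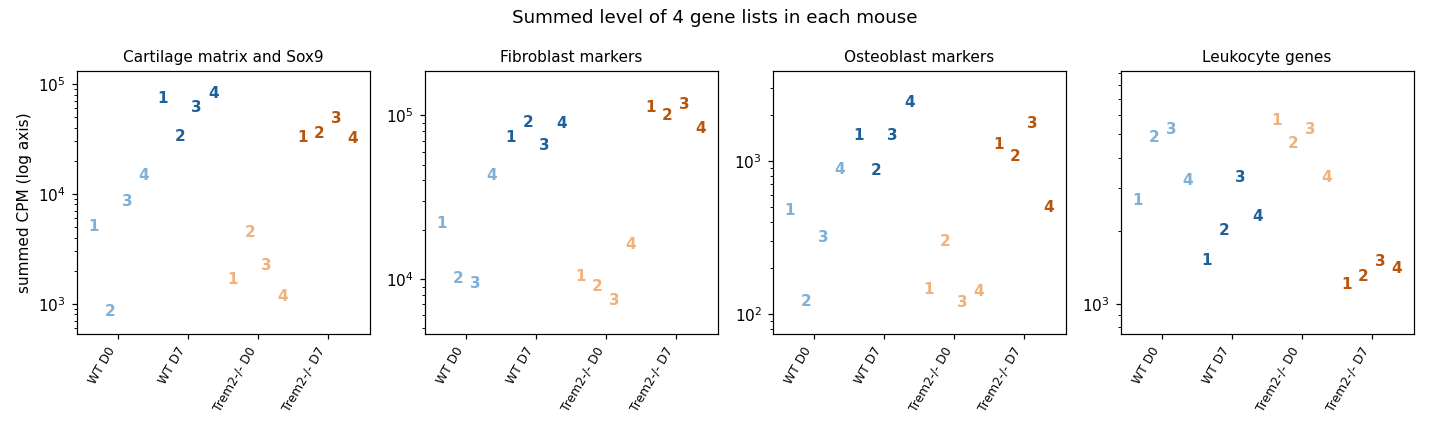
Summed level in CPM, on log axes, of the 10 cartilage genes and of the fibroblast, osteoblast and leukocyte lists in each mouse. Digits are the numbers of the mice within each group. The cartilage, fibroblast and osteoblast sums are higher after injury, and the leukocyte sums are lower after injury without overlap in Trem2-/- mice.

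Blood cell genes went the other way. Leukocyte markers were called lower at D7 for 5 of 6 genes in WT and 6 of 6 in Trem2-/- mice, neutrophil markers for 6 of 6 in both genotypes, and erythroid markers for 4 of 4 in both. The leukocyte sum was 2678 to 5222 CPM at WT D0 and 1514 to 3335 at WT D7, and 3322 to 5728 and 1197 to 1501 CPM in Trem2-/- mice. The neutrophil sum was 9911 to 21739 and 2926 to 10469 CPM in WT, and 10342 to 27214 and 3151 to 4917 CPM in Trem2-/- mice. The erythroid sum was 1359 to 2210.2 and 409 to 1476 CPM in WT, and 992 to 2131 and 336 to 821 CPM in Trem2-/- mice. Of all genes tested, 12.6% fell in WT and 27.2% in Trem2-/- mice. Muscle markers were lower for 1 of 5 genes in WT and 5 of 5 in Trem2-/- mice, with sums of 164 to 613 and 109 to 293 CPM in WT and of 275 to 772 and 119 to 182 CPM in Trem2-/- mice. Adipocyte markers were lower for 1 and 2 of the 3 tested, with sums of 451 to 1303 and 377 to 612 CPM in WT and of 569 to 1285 and 421 to 671 CPM in Trem2-/- mice. None of the 5 endothelial markers was called in either genotype by limma, with sums between 1011 and 2708 CPM in all 16 mice.

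Immediate early and heat shock genes, which respond to handling of tissue, were called lower at D7 for 1 of 8 genes in WT and 4 of 8 in Trem2-/- mice. Of all genes tested, 12.6% fell in WT and 27.2% in Trem2-/- mice, so that the WT count was near the share of all genes. The summed level of these stress genes was 9033 to 13540 CPM at WT D0 and 7781 to 11294 at WT D7, and 11515 to 23581 and 8506 to 11225 CPM in Trem2-/- mice. The uninjured mouse with the least cartilage signal, WT D0 mouse 2, had the highest stress sum of its group (13540 CPM) and the lowest osteoblast and tendon sums (120 and 393 CPM), while its leukocyte sum of 4853 CPM was the second highest. WT D0 mouse 1 had a similar stress sum (13043 CPM) with a cartilage sum of 5020 CPM, against 844 CPM in mouse 2. Trem2-/- D0 mouse 3 had the highest stress sum of its group (23581 CPM) and the second highest cartilage sum (2210 CPM). No listed marker in the table was at 0 in all libraries. The part of other cell types, of tissue handling and of the amount of cartilage in a library in the rise and spread of the 10 genes was not tested.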

How the data were processed

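Bulk RNA-seq libraries of 16 mice, 4 per group, were analysed, with groups taken from the genotype and injury state in the labels. Per the labels and the study's methods, the signal values that the authors deposited come from aligning reads to mm10 (GRCm38) with STAR, obtaining gene counts from featureCounts and applying the TMM normalization of edgeR, so that the deposited values are CPM relative to the TMM-scaled library size. Tool versions, annotation, strand setting and low-count filter are not given in the sources used here.

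What a single read is worth in a library was worked out from its smallest values, and with a tolerance of 0.02 reads 100% of the entries came out whole. Reads on listed genes per library had a median of 16399898 and ranged from 11567073 to 32867818. Fcgr1, listed 2 times with identical values, was counted once, which leaves 13733 genes, of which 13428 matched GENCODE M21. Replicates of a group were distinct libraries, differing beyond counting noise (a chi-square of at least 10.4 per degree of freedom for each pair).

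The 13173 genes that reached 1 CPM in 4 or more libraries were tested, after a log2 transform of the value plus 1, by limma 3.58.1 (lmFit followed by eBayes, trend = TRUE; R 4.3.3), with the 4 groups as one factor, two-sided, with Benjamini-Hochberg adjustment over all genes tested. Spread was compared with the same model on each mouse's absolute deviation from its group mean, multiplied by sqrt(n/(n-1)). Both were tested on simulated data, where the spread test found few of the genes whose SD differed 3-fold and most of those that differed 10-fold. The alternatives were other pseudocounts, filters and scalings, only the groups compared, the replicate number as a block, each mouse left out, and edgeR 4.0.16, voom and DESeq2 1.42.0 on the recovered reads. Leaving out WT D0 mice 2 and 4 together was added after seeing the data. The genes and marker lists were chosen with earlier results of these data known. All 10 cartilage genes are named, of the other chondrocyte genes those called in either genotype after injury (at most 8, by mean level), and the 8 genes most like the 10 over all 16 and over the 8 uninjured mice. Promoter windows are from RefSeq on GRCm38.p6.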

Additional observations from a re-analysis of the deposited data

Results flagged for a closer look

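Within groups of 4 mice, 6 of the 40 combinations of gene and group had 1 mouse far from the others, by a gap whose share of the group's range was above Dixon's 95% critical value for 4 values. Chance flags about 1 group in 20, and since several of the 10 genes are highest in the same mouse, the 6 are not separate events. Trem2-/- D7 mouse 3 was the highest for Acan (4069 CPM against 2785 to 2929, gap 0.887 of the range), Comp (5599.9 against 3406 to 3657, gap 0.886), Hapln1 (873 against 486 to 533, gap 0.879) and Col11a2 (2455 against 1703 to 1825, gap 0.837). Trem2-/- D0 mouse 2 was the highest for both chains of collagen XI, Col11a1 (222 CPM against 73.0 to 88.2, gap 0.897) and Col11a2 (263 against 58.3 to 83.4, gap 0.877). No gene had such a gap at WT D0.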

How the results depend on the processing

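All 10 genes rose after injury in both genotypes by the study's rule under each alternative run. After adjustment the WT count of 10 was 8 with only the groups compared and 9 with edgeR, without WT D0 mouse 2, without WT D7 mouse 1 and without WT D0 mice 2 and 4. Of 200 WT values 194 kept their call and 6 lost it (Col9a1 in 5, Comp in 1), and all 190 Trem2-/- values kept theirs.

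Between genotypes at D0, the study's rule gave 2 genes with only the groups compared, 2 with the replicate block and 2 to 10 without single mice, against 7. The difference of Comp ran from -0.94 to 0.0364 (without WT D0 mouse 4). At D7 the rule gave 3 genes with only the groups compared, against 0. The interaction by the rule was met by 1 gene with edgeR, 1 with DESeq2, 4 without WT D0 mice 2 and 4, and 0 to 8 without single mice. Without single mice its value ran from -0.11 to 0.85 for Sox9 and from -0.35 to 0.63 for Comp, below 0 without 1 mouse for Sox9 and without any of 7 mice for Comp.

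The spread test between days called 4 to 10 genes without single mice, and that between uninjured genotypes 0 to 2. In the latter the difference ran from -1.29 to 0.30 for Col2a1, from -1.54 to 0.30 for Matn3, from -0.95 to 0.0863 for Hapln1, from -1.14 to 0.93 for Col9a1 and from -1.09 to 0.38 for Col9a2. It was above 0 without WT D0 mouse 2 for all 5, and without Trem2-/- D0 mouse 1 for Col9a1 and Col9a2. The cause of these changes was not tested.

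Over all genes, the deviations of same-numbered mice correlated at 0.046 to 0.406 between WT D0 and WT D7 and at -0.509 to 0.38 in the other pairs of groups, and 6 of 16 libraries were closest to their own number. The labels do not say that a number marks a shared animal or batch, and the numbers were not taken as a pairing. The genes called over the whole table in WT mice numbered 1736 with only the groups compared and 1972 to 4792 without single mice, and 3752 in the comparison as reported. With 4 mice a group, spreads are estimated loosely, and at D0 Matn3 came down to 3 reads in 1 mouse, where counting error is large.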
